A study of Drosophila melanogaster with 12 samples.

Results

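Heads of *Drosophila melanogaster* at 25 °C were compared with heads at 18 °C taken at the same hours of the day. The comparison uses 6 of the 12 arrays of a temperature time course. These are AA2, AA6 and AA10, collected at 25 °C, and CA2, CA6 and CA10, collected at 18 °C, chosen by temperature and hour as the sample titles and methods give them and paired by hour, with 3 arrays a side. All flies were *y w*, a laboratory strain with mutations in the pigmentation genes *yellow* and *white* that serves here as wild type, and all were held in constant darkness. They grew at 25 °C until early pupal stages and were then placed in a cycle of 12 h at 18 °C and 12 h at 25 °C, with hours counted from the start of the cold phase. The CA arrays come from the last day of that cycle in adults that had spent several days in it, so CA2, CA6 and CA10 stand for 2, 6 and 10 h in the cold. The AA arrays come from the next day, on which the temperature stayed at 25 °C, so AA2, AA6 and AA10 were collected at the hours when the cold would have come. Each array holds RNA from the pooled heads of many flies of unstated sex. Because the 25 °C arrays are the later day, temperature, the order of the days and 1 day of added age go together in every pair and cannot be told apart. The other 6 arrays, CA14, CA18, CA22, AA14, AA18 and AA22, were at 25 °C on both days and give the difference between the same days with no difference in temperature at collection. Recent temperature still differed in these pairs, since the CA flies had come from the cold phase that day and the AA flies had not. Its part in the late differences was not tested.

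Flies take the temperature of their surroundings, so a fall in temperature slows enzymes, stiffens membranes and changes how proteins fold and how RNA is processed. Chaperones, which keep proteins folded, are the best known genes under temperature control and are induced above all by heat through the transcription factor Hsf. A daily temperature cycle also sets the phase of the circadian clock, in which Clk and cyc switch on *per*, *tim*, *vri*, *Pdp1* and *cwo*, whose products feed back on them.

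Values were log2 expression levels from the RMA procedure, which corrects background, makes the arrays comparable and summarises the probes of each probe set, so a difference of 1 is a doubling. Of 13966 probe sets other than controls, 11137 (79.7%) were kept, those above the 20th percentile of all values (2.93) on more than 6 of the 12 arrays. Array medians lay between 4.35 and 4.39, and the correlation between arrays over the kept probe sets lay between 0.974 and 0.995. Markers of the head were present on all 12 arrays: *ninaE*, the rhodopsin of the outer photoreceptors, read 12.97 to 13.39, and *elav*, a neuronal RNA-binding protein, read 4.13 to 5.82. The labels do not say whether the arrays stand for separate cultures, so a p-value measures the spread between these arrays only. In whole heads, fewer cells of a type and less RNA per cell cannot be told apart.

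A pair of measures taken as checks on the arrays differed along with temperature at some hours. The array carries control probe sets at the 3′ and the 5′ end of the transcript of eIF-4a, and a large difference between them is a sign of shortened RNA or cDNA. That difference was 2.74, 2.44 and 2.73 on CA2, CA6 and CA10, and 0.96, 2.40 and 1.54 on AA2, AA6 and AA10. It was thus lower at 25 °C by 1.79 at hour 2, by 1.19 at hour 10 and by 0.04 at hour 6. The probe set of the *eIF4A* gene itself was higher at 25 °C by 1.02, 0.14 and 0.70 at hours 2, 6 and 10. Whether the measure follows shortened RNA or the level of that transcript was not tested. The same measure on the Gapdh transcript was 2.39, 2.37 and 2.36 at 18 °C and 2.09, 2.40 and 2.26 at 25 °C. On the actin transcript it was 1.80, 1.43 and 1.37 at 18 °C and 1.20, 1.64 and 1.46 at 25 °C. The second measure is a score for RNA of body tissue, the mean deviation of gut and male reproductive tract markers from their means over 12 arrays. It was 0.41, -0.49 and -0.47 on CA2, CA6 and CA10 and -0.38, -0.11 and -0.52 on AA2, AA6 and AA10, so CA2 stood above the other early arrays. At hour 6 the score was 0.38 higher on AA6 than on CA6. Of 19 gut markers measured, 2 were higher at 25 °C over the 3 hours (median -0.10), as were 2 of 10 male reproductive tract markers (median -0.09). The sign changed with the hour. At hours 2, 6 and 10 the medians were -0.57, 0.17 and 0.07 for gut and -0.65, 0.415 and -0.12 for the male reproductive tract.

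**Figure D1:**
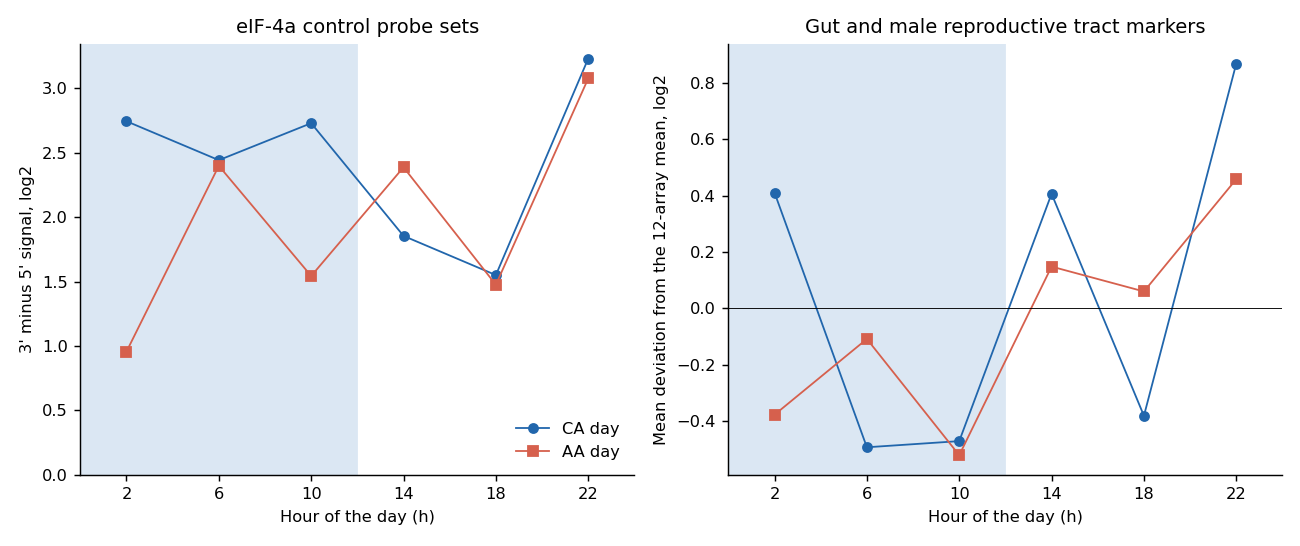
The left panel plots the 3′ minus 5′ signal of the eIF-4a control probe sets (log2) against the hour of the day for the 12 arrays, and the right panel plots the mean deviation of gut and male reproductive tract markers (log2), with CA arrays as blue circles, AA arrays as red squares and the hours with CA at 18 °C shaded. At hour 6 the eIF-4a values of both days nearly coincide (2.44 and 2.40), whereas at hours 2 and 10 the AA arrays lie lower.

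Few single probe sets passed the test after correction for the number tested, and those that did stood 1.41 to 2.34 times apart. A linear model with hour as a block (limma), which takes its error from the paired differences of all 12 arrays, called 15 of 11137 probe sets (0.135%) at a Benjamini-Hochberg adjusted p below 0.05. Of these, 5 (0.0449%) were higher at 25 °C and 10 (0.0898%) were lower. All 15 differed in the same direction at all 3 hours, which the test favours, with sizes of 0.40 to 1.08 at hour 6. The median standard error of a difference was 0.087. A less strict limit of 0.2, at which 1 call in 5 may be false, was passed by 833 probe sets (7.48%), 388 higher (3.48%) and 445 lower (4.0%). At that limit 0 passed without the hour block, 1 with the eIF-4a measure as a covariate, 46 without the hour 2 pair, 1943 without the hour 6 pair and 1 without the hour 10 pair. Before adjustment, 16.1% of probe sets had a p below 0.05. Over all probe sets the median difference was 0.01 at hour 2, -0.01 at hour 6 and 0.00 at hour 10 (SD over probe sets 0.31, 0.18 and 0.22), and 82, 19 and 23 probe sets differed by more than 1 at these hours. The largest spread was thus at hour 2.

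The call is at the edge of what 3 pairs allow. The lowest adjusted p was 0.00298 and the other 14 shared the value 0.0486, a tie that the adjustment produces. Without the hour block no probe set passed 0.05 (711 at an unadjusted p below 0.05), and with the eIF-4a measure as a covariate none did either (755 unadjusted). Leaving out either array of an hour removes that pair, and gave 3 calls without hour 2, 408 without hour 6, 0 without hour 10, and 54, 2 and 1 without hours 14, 18 and 22.

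Of the 5 called probe sets higher at 25 °C, *SPARC* had the largest difference. It encodes a secreted protein that binds collagen in basement membranes. Its levels were 9.29, 9.53 and 9.29 at 18 °C at hours 2, 6 and 10, and 10.45, 10.06 and 10.19 at 25 °C. Every 25 °C value lay above every 18 °C value, and the gap was widest at hour 2. The mean difference was 0.86 (SE 0.11, 3 pairs, 1.82-fold, limma adjusted p = 0.0486). With the eIF-4a covariate it was 0.55. At the late hours *SPARC* ranged from 9.04 on AA22 to 10.13 on AA18, and at hour 22 it lay below the 3 cold values on both days.

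The splicing factor gene *U2af38*, which encodes the small subunit of the U2AF dimer that recognises the 3′ splice site, had nearly equal levels on the 3 early arrays at 25 °C. It read 5.26, 5.45 and 5.35 at 18 °C, and 5.93, 5.92 and 5.93 at 25 °C. The groups did not overlap, and the mean difference was 0.57 (SE 0.085, 1.48-fold, limma adjusted p = 0.0486). Like *SPARC*, it was low at hour 22 on both days (5.10 on CA22 and 4.92 on AA22), lower than on any of the 18 °C arrays. Its partner *U2af50*, named here after its values were seen, differed by -0.03 between the temperatures.

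*DnaJ-1* encodes an Hsp40, a co-chaperone that hands unfolded proteins to Hsp70. It read 6.16, 6.14 and 6.43 at 18 °C and 6.74, 6.54 and 7.01 at 25 °C, a difference of 0.52 (SE 0.076, 1.43-fold, limma adjusted p = 0.0486). The groups did not overlap, and the 6 arrays at the late hours, all at 25 °C, ranged from 6.68 to 7.17, so that all 9 arrays at 25 °C lay above all 3 at 18 °C. *CG4558*, a gene with no role known here, showed the same order. It read 5.80, 5.72 and 5.70 at 18 °C and 6.37, 6.12 and 6.20 at 25 °C, a difference of 0.49 (SE 0.073, 1.41-fold, adjusted p = 0.0486). The fifth probe set higher at 25 °C, 148013_at, had no gene name in the tables used. It read 5.61, 5.24 and 5.49 at 18 °C and 5.997, 5.83 and 6.12 at 25 °C, a difference of 0.54 (SE 0.079).

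The largest called difference was a lower level at 25 °C. *CG13315*, an abundant transcript whose role is not known here, read 10.14, 10.69 and 10.86 on CA2, CA6 and CA10 and 8.897, 9.64 and 9.48 on AA2, AA6 and AA10. All 3 values at 18 °C lay above all 3 at 25 °C, and the paired differences were -1.24, -1.05 and -1.38. Their mean was -1.22 (SE 0.097, 2.34-fold, limma adjusted p = 0.00298). At the late hours, with both days at 25 °C, it read 9.39, 8.75 and 9.48 on the CA day and 9.53, 9.26 and 9.95 on the AA day. The 3 cold arrays were therefore the highest of all 12. With the eIF-4a covariate the difference was -1.20 (SE 0.16) and was no longer called (limma adjusted p = 0.196). With the body marker score it was -1.20 and remained called (adjusted p = 0.00784).

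A pair of immune genes was lower at 25 °C. *Rel* encodes the NF-kB factor at the end of the Imd pathway, which responds to bacteria. It read 4.85, 5.21 and 5.30 at 18 °C and 4.30, 4.71 and 4.76 at 25 °C. The groups did not overlap, and the paired differences were nearly equal (-0.55, -0.50 and -0.54), with a mean of -0.53 (SE 0.079, 1.45-fold, limma adjusted p = 0.0486). *Vago* encodes a secreted protein of the antiviral response. It read 5.69, 6.15 and 5.96 at 18 °C and 5.08, 5.51 and 5.50 at 25 °C, a difference of -0.57 (SE 0.077, 1.48-fold). The late arrays of *Vago*, from 4.84 to 5.62, all lay below the 3 cold arrays.

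*ACC* encodes acetyl-CoA carboxylase, the enzyme of the first committed step of fatty acid synthesis. Its called probe set read 7.66, 7.82 and 7.998 at 18 °C and 7.05, 7.20 and 7.59 at 25 °C, a difference of -0.55 (SE 0.080, 1.46-fold, limma adjusted p = 0.0486). The 3 cold arrays were the highest of the 12. A second probe set for *ACC* read 6.07 to 6.29 at 18 °C and 6.10 to 6.21 at 25 °C, with a mean difference of 0.00, so the probe sets of this gene disagreed. *NAT1* encodes a translation factor related to eIF4G. It read 4.97, 5.67 and 5.73 at 18 °C and 4.59, 5.07 and 5.10 at 25 °C, a difference of -0.54 (SE 0.078). Here the groups overlapped, since CA2 lay below AA6 and AA10, and the call rests on the pairing by hour.

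*CG15096* and *CG10553* complete the named genes that were lower at 25 °C, and no role is given for either here. *CG15096* read 9.87, 10.21 and 9.99 at 18 °C and 8.98, 9.60 and 9.45 at 25 °C, a difference of -0.68 (SE 0.10, 1.60-fold). *CG10553* read 6.72, 7.20 and 7.11 at 18 °C and 6.001, 6.56 and 5.89 at 25 °C, a difference of -0.86 (SE 0.12, 1.81-fold). In both genes all 25 °C values lay below all 18 °C values at these hours. The remaining 3 probe sets lower at 25 °C had no gene name in the tables used. Their differences were -0.96 for 146946_s_at, -0.84 for 143588_at and -0.66 for 150574_at. 143588_at was also lower on the AA day at the late hours, by -0.61.

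In the RefSeq annotation the genes higher at 25 °C lie on chromosome arms 3R (*SPARC*), 3L (*DnaJ-1*) and 2L (*U2af38*) and on the X (*CG4558*). Those lower lie on 3L (*CG13315*), the X (*Vago*), 3R (*CG10553* and *Rel*) and 2R (*NAT1*, *ACC* and *CG15096*).

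**Figure D2:**
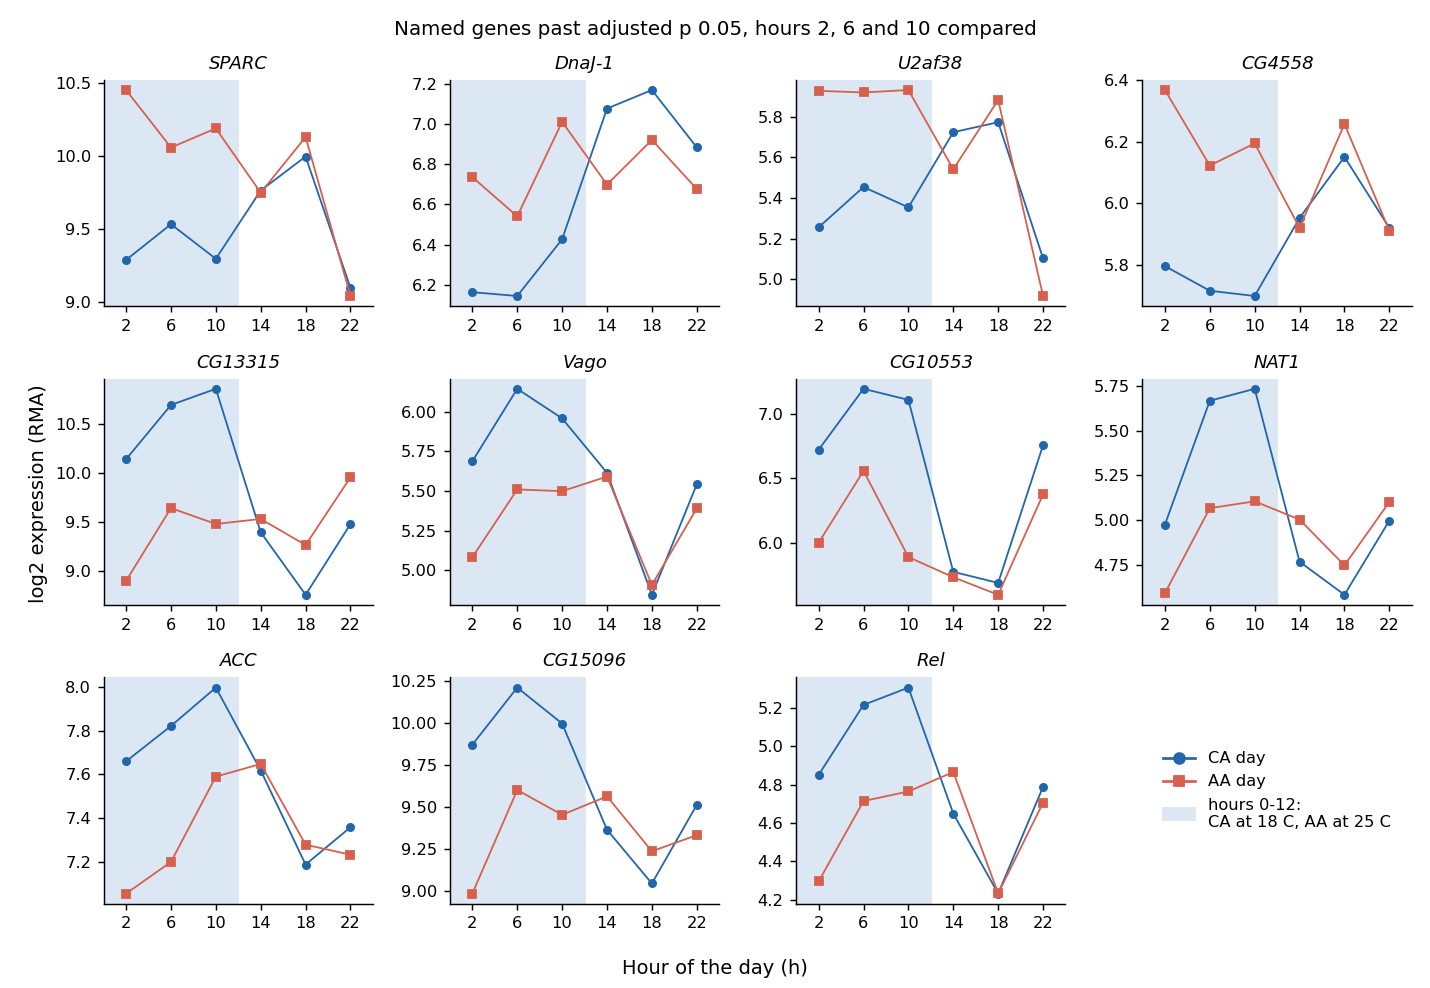
Log2 expression (vertical axis) of the 11 named genes with an adjusted p under 0.05 is plotted against the hour of the day, 1 point an array, with the CA day as blue circles, the AA day as red squares and the hours with CA at 18 °C shaded. At each of the 3 shaded hours the red points of *SPARC*, *DnaJ-1*, *U2af38* and *CG4558* lie above the blue points of the same hour and those of the other 7 genes lie below them; at the later hours, with both days at 25 °C, their mean differences run from -0.28 to 0.37.

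Of the 15 called probe sets, 13 had all 3 values at one temperature above all 3 at the other, the exceptions being *NAT1* and 150574_at. The call itself favours groups that lie apart, so this count is no separate support for it. Over all probe sets, 878 (7.88%) had the 3 arrays at 25 °C above the 3 at 18 °C, and 673 (6.04%) had them below. Among the genes whose groups lay apart in this way, *nSyb*, *CNBP*, *CG12091* and *Lk6* had larger differences than most of the called genes.

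Several genes with differences of 0.88 to 1.01 missed the threshold narrowly. *nSyb*, which encodes the synaptobrevin of nerve terminals, read 5.69, 5.90 and 5.69 at 18 °C and 6.96, 6.53 and 6.83 at 25 °C, a difference of 1.01 (SE 0.18, limma adjusted p = 0.0626). *Lk6*, a kinase of the cap-binding factor eIF4E, differed by 0.90 (SE 0.15, adjusted p = 0.0558), and by 0.33 with a second probe set. *Drat* stood at 0.88 and *CG12091* at 0.94 (adjusted p = 0.0544 and 0.0550). With the eIF-4a measure as a covariate the differences were 0.47 for *nSyb*, 0.53 for *Lk6*, 0.47 for *Drat* and 0.42 for *CG12091*. Just beyond the threshold on the lower side were *Nadk1a*, an NAD kinase, at -0.72, *CG31445* at -0.53 and *CG15293* at -0.45, each with an adjusted p of 0.0544. For *Nadk1a* the covariate gave -0.85.

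The arrays at the late hours allow a stricter sorting, since 3 of the 9 arrays at 25 °C come from the same day as the cold arrays, at other hours. In 100 probe sets (0.898%) all 9 arrays at 25 °C lay above the 3 at 18 °C, and in 105 (0.943%) all 9 lay below. Among the 15 called probe sets this held for 8, namely *DnaJ-1*, *CG4558* and 148013_at in the first direction and *CG13315*, *Vago*, *ACC*, *CG15096* and 146946_s_at in the second. The 15 were called on the same 3 cold arrays, so their share cannot be set against that over all probe sets. Time of day differs between the cold arrays and 6 of the 9 others, so in this sorting hour and temperature cannot be told apart for those 6.

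The widest gap between the 9 and the 3 belonged to *Cpr72Ec*, which encodes a protein of the cuticle and the corneal lens. It read 10.07, 10.30 and 10.26 at 18 °C, while the 9 arrays at 25 °C ran from 8.09 on CA18 to 9.75 on AA6, a gap of 0.32. Its paired difference at the early hours was -0.69 (SE 0.14, limma adjusted p = 0.0869). *speck*, which encodes an arylalkylamine N-acetyltransferase, read 5.59, 5.60 and 5.61 at 18 °C, the tightest of these sets, and 5.84 to 6.48 on the 9 arrays at 25 °C, with a paired difference of 0.54 (adjusted p = 0.0940). Some further genes in this class are named after their values were seen. *Gk2*, a glycerol kinase, differed by -0.46, *Acsx3* by -0.44, *psh*, a protease upstream of the Toll receptor, by -0.33, and *Septin1* by 0.43. None of these 6 passed an adjusted p of 0.05.

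Among the chaperones, 1 gene was higher at 25 °C by the test and several others stood higher without passing it. Of 17 co-chaperones measured, 10 were above 0 and 1, *DnaJ-1*, was called, beside 0.0449% called higher over all probe sets; the median was 0.03, beside 0.00 over all probe sets. *Stip1*, which links Hsp70 to Hsp90, read 5.37, 4.90 and 5.30 at 18 °C and 5.58, 5.85 and 5.94 at 25 °C, and 5.74 to 6.28 at the late hours. All 9 values at 25 °C exceeded the 3 cold values, and the paired difference was 0.60 (SE 0.13, limma adjusted p = 0.0895). *Hsp83*, the fly Hsp90, read 7.65, 7.49 and 8.49 at 18 °C and 8.47, 8.61 and 8.81 at 25 °C, a difference of 0.75 (SE 0.15, adjusted p = 0.0878), with CA10 just above AA2. With the eIF-4a covariate the differences of *Stip1* and *Hsp83* were 0.96 and 0.90.

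The list of cytosolic Hsp70 and Hsp90 chaperones, which also holds their regulator *Hsf*, had 6 members measured, 4 higher and 2 lower, and a median of 0.08. *Hsf* itself stood at -0.24 and *Hsp68* at 0.17 (adjusted p = 0.28 and 0.51). Of 7 measured subunits of CCT, the ring-shaped chaperonin that folds actin and tubulin, 6 were higher at 25 °C. None was called, beside 0.135% over all probe sets. The median was 0.19, and 0.14, 0.11 and 0.20 at hours 2, 6 and 10. *CCT3* stood at 0.42, *CCT5* at 0.31 and *CCT4* at 0.27, and at 0.38, 0.16 and 0.10 with the eIF-4a covariate. *Hsp60A*, a mitochondrial chaperonin, stood at 0.63 (SE 0.11, limma adjusted p = 0.0599), and at 0.39 with that covariate. The 6 small heat shock proteins had a median of -0.08 and the 13 folding factors of the endoplasmic reticulum one of -0.03.

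The core clock genes were measured at the same clock hours on both days. None of the 11 was called, beside 0.135% over all probe sets. Of them, 3 stood higher and 8 lower at 25 °C, and the median was -0.18. *cwo*, a repressor that acts on the targets of Clk, read 5.41, 5.71 and 5.53 at 18 °C and 4.59, 5.19 and 5.32 at 25 °C, with every 25 °C value below every 18 °C value (difference -0.52, SE 0.11, limma adjusted p = 0.0912). *Clk* stood at -0.40 and *per* at -0.34 (adjusted p = 0.154 and 0.241). For *tim* the sign changed with the hour, from -0.26 at hour 2 to 0.18 at hour 6 and 0.74 at hour 10, and the mean was 0.22 (SE 0.18). *vri* stood at 0.00 and *cry*, the blue light receptor, at 0.16. At hours 14, 18 and 22, with no temperature difference at collection, the median of the 11 genes was also below 0 (-0.16), and *cwo* stood at -0.35.

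**Figure D3:**
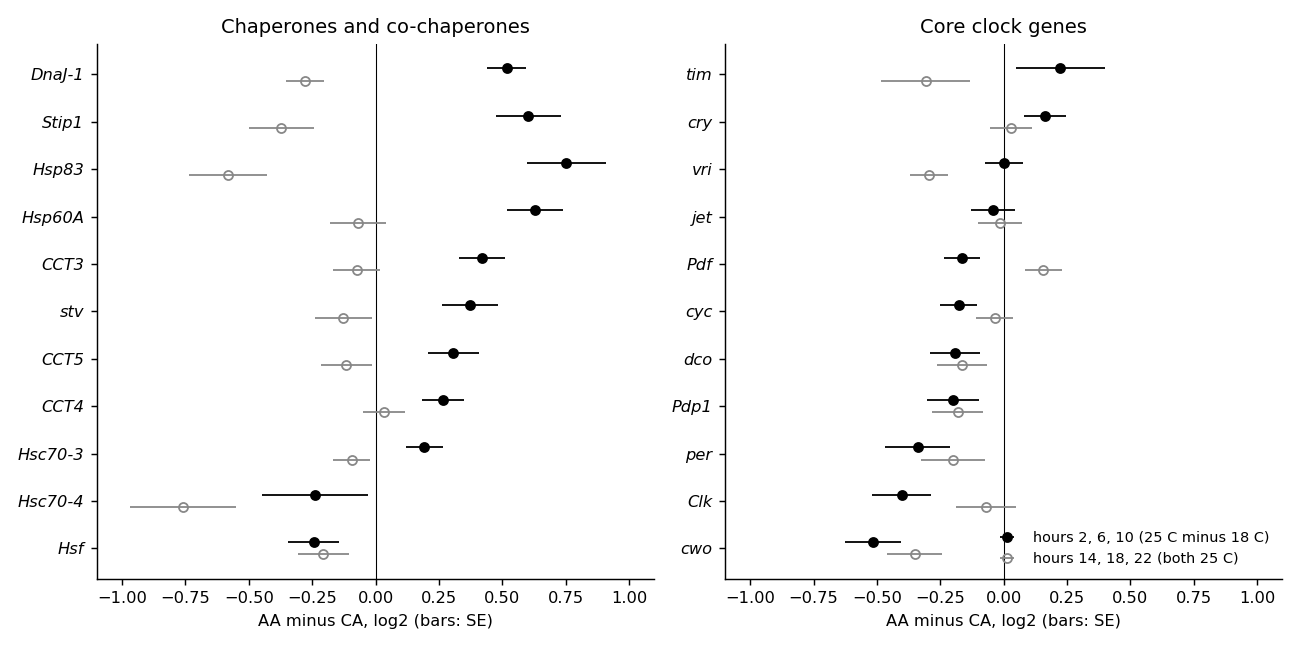
Differences between the days (AA minus CA, log2, horizontal axis; bars are standard errors) are plotted for chaperone genes on the left, of which *Hsc70-4* was added after its values were seen, and core clock genes on the right, as filled circles for hours 2, 6 and 10 (25 °C minus 18 °C) and open circles for hours 14, 18 and 22 (both days at 25 °C). *DnaJ-1*, *Stip1* and *Hsp83* have filled circles right of 0 (0.52, 0.60 and 0.75) and open circles left of it, whereas *cwo*, *per* and *Clk* lie left of 0 in both.

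Of 9 genes of glycolysis, 7 stood higher at 25 °C (median 0.19). None was called, beside 0.135% over all probe sets. By hour the medians of this list were 0.56, -0.05 and 0.23, and with the eIF-4a measure as a covariate the median was -0.06. At hours 2 and 10 the eIF-4a measure and temperature differed together, and the part of either was not tested. For *Pgk*, phosphoglycerate kinase, the differences were 1.47, -0.05 and 0.71. *eEF1alpha2*, a translation elongation factor, had the largest mean difference of the translation genes, 1.30 (SE 0.34, limma adjusted p = 0.129), made of 2.22, -0.04 and 1.73, and -0.02 with the covariate. In contrast, 7 of 9 genes of trehalose and glycogen metabolism stood lower at 25 °C (median -0.15, none called). *Treh*, which splits trehalose, the main sugar of fly haemolymph, read 7.11, 7.25 and 7.39 at 18 °C and 6.61, 6.96 and 6.98 at 25 °C (difference -0.40, SE 0.078, adjusted p = 0.0787).

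In lipid metabolism 1 of 19 genes of fat synthesis and storage, *ACC*, was called, beside 0.0898% called lower over all probe sets, and 12 of the 19 stood lower at 25 °C (median -0.04). *mdy*, the diacylglycerol acyltransferase that makes triglyceride, read 5.61, 6.54 and 6.55 at 18 °C and 5.32, 5.85 and 5.75 at 25 °C (difference -0.59, SE 0.11, limma adjusted p = 0.0626). CA2 lay below AA6 and AA10. Of 12 genes of fatty acid oxidation, 8 stood lower (median -0.17) and none was called, beside 0.135% over all probe sets. By hour the medians were -0.19, 0.00 and -0.10, and with the eIF-4a covariate the median was 0.01. They included *whd*, the carnitine palmitoyltransferase that lets fatty acids into mitochondria, at -0.33, but *Mtpbeta*, a subunit of the mitochondrial trifunctional protein, stood at 0.49. The respiratory chain and ATP synthase had 24 of 36 members lower (median -0.15, none called), with medians of -0.34, -0.02 and -0.07 at hours 2, 6 and 10, and 0.03 with the eIF-4a covariate.

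Of 19 measured genes that have been linked to cold in insects, 7 stood higher and 12 lower (median -0.08). None was called, beside 0.135% over all probe sets. *P5CS*, which makes proline, stood at 0.58, higher at 25 °C (limma adjusted p = 0.0791), and at 0.30 with the eIF-4a covariate. *Desat1*, a fatty acid desaturase named after its values were seen, stood at -0.30 (adjusted p = 0.269).

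Of 14 SR splicing factors and kinases, 7 stood higher, 7 lower and 1, *U2af38*, was called, beside 0.0449% called higher over all probe sets (median 0.01). *hfp*, another splicing factor, stood at 0.54 (limma adjusted p = 0.09), and at 0.28 with the eIF-4a covariate. None of 14 hnRNP proteins (median 0.00), 27 cytosolic ribosomal proteins (median -0.08) or 27 proteasome subunits (median -0.07) was called, beside 0.135% over all probe sets. Among the ribosomal proteins *RpLP0* stood at 0.57 and *RpS20* at -0.26. With the eIF-4a covariate they stood at 0.16 and -0.13.

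Of 19 antimicrobial peptides and immune factors, 12 stood lower at 25 °C and 1, *Rel*, was called, beside 0.0898% called lower over all probe sets (median -0.18). *BomS2*, a short peptide of the Toll response, stood at -0.48, *spz*, the Toll ligand, at -0.32, and *cact*, which holds the Toll pathway's transcription factors in the cytoplasm, at -0.30, with adjusted p of 0.0750, 0.18 and 0.109. The 9 arrays of *cact* at 25 °C all lay below the 3 cold arrays. The list's medians were -0.30, -0.02 and -0.28 at hours 2, 6 and 10, and the median was 0.06 with the eIF-4a covariate. With that covariate *Rel* stood at -0.44 and was not called (limma adjusted p = 0.534).

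All 9 measured genes of the takeout list, secreted carriers related to juvenile hormone binding proteins, stood lower at 25 °C and none was called. Over all 11137 probe sets, 5447 stood lower and 0.135% were called. The study counts more members in this family than the list holds. The median of the list was -0.26, and -0.07 with the eIF-4a covariate. *Jhbp3* of this list read 9.23, 9.44 and 9.46 at 18 °C and 8.70, 9.10 and 8.88 at 25 °C, a difference of -0.48 (SE 0.084, limma adjusted p = 0.0599). Of 26 odorant-binding proteins, 17 stood lower and 7 of these passed 0.2, none in the other direction, beside 4.0% lower over all probe sets. The median of the list was -0.07, and 0.00 with the eIF-4a covariate. *Obp99b* read 7.23, 7.26 and 7.52 at 18 °C and 6.76, 6.81 and 6.92 at 25 °C, a difference of -0.51 (SE 0.088, adjusted p = 0.0599). Its groups did not overlap. Of 68 cytochrome P450 enzymes, which oxidise hormones and toxins, 45 stood lower. At 0.2, 11 passed in that direction and 1 in the other, beside 4.0% lower and 3.48% higher over all probe sets. The median of the P450 list was -0.04, and -0.02 with the eIF-4a covariate. Those lower included *Cyp6d5* at -0.45 and *Cyp18a1*, an enzyme that inactivates ecdysone, at -0.43. No P450 and no odorant-binding protein passed 0.05. The counts at 0.2 in both families were lost with other fits, since over all 11137 probe sets 1 passed 0.2 with the eIF-4a covariate, 0 without the hour block and 46 without the hour 2 pair.

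Markers of the cell types in a head showed no called difference, beside 0.135% called over all probe sets. With so few markers, the lack of calls does not show that cell composition was equal. Of 4 neuronal markers measured 1 stood higher, *nSyb*, and the median was -0.10. The medians were -0.15 for 5 photoreceptor markers, -0.09 for 4 glial markers, -0.07 for 6 fat body markers and -0.14 for 5 muscle markers. The medians of all 37 gene lists lay between -0.26 and 0.19.

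**Figure D4:**
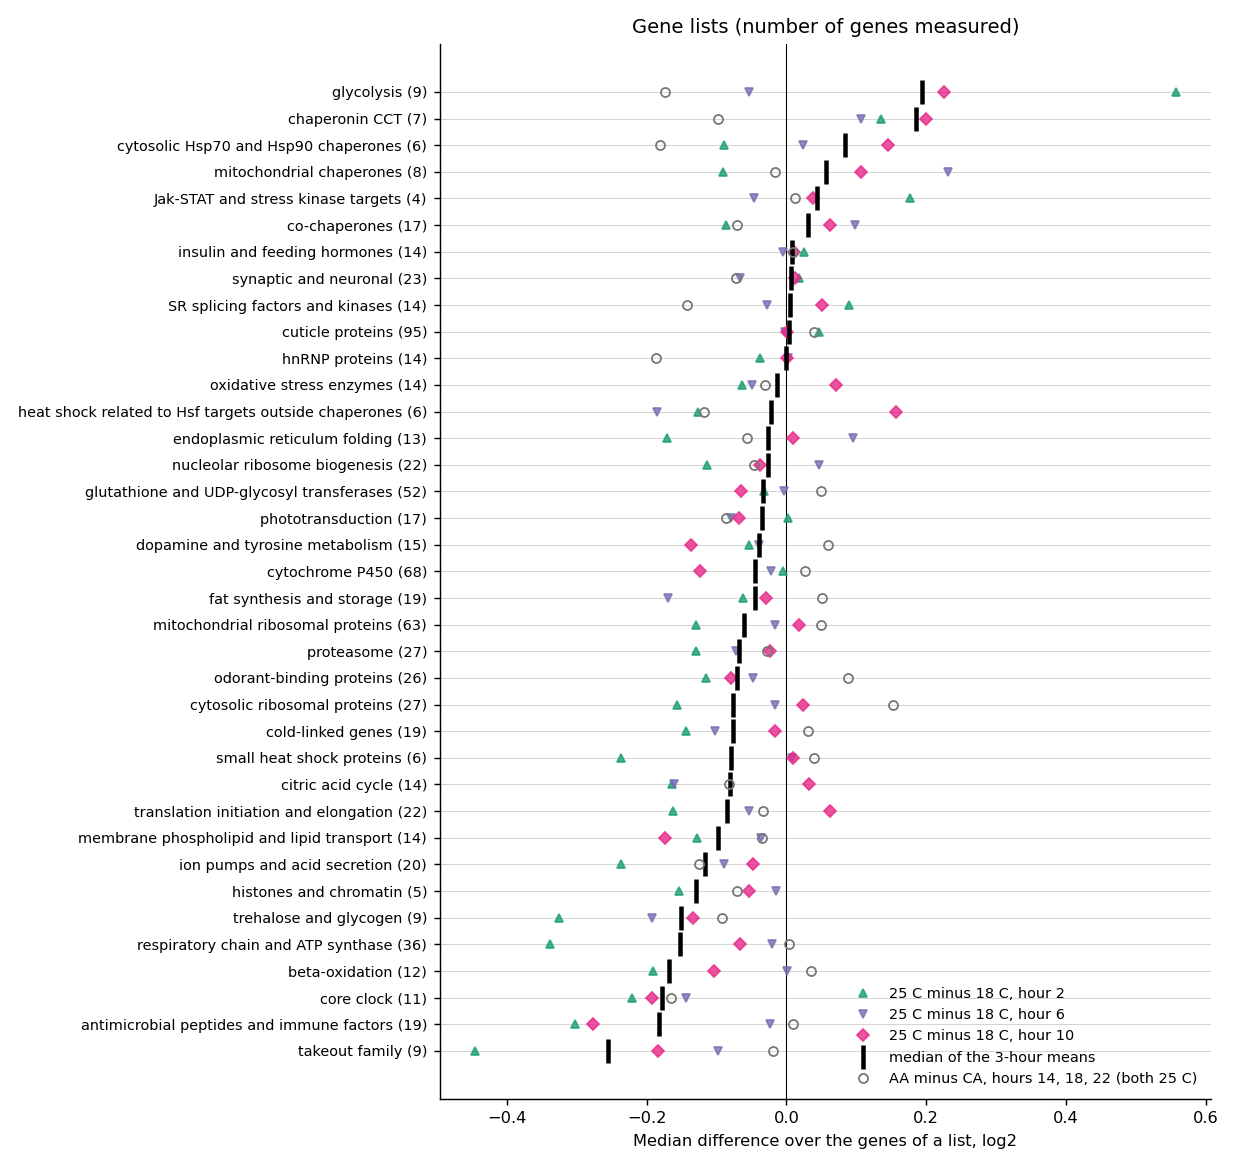
For each of 37 gene lists (rows, with the number of genes measured), the horizontal axis gives the median difference between 25 °C and 18 °C over its genes in log2 units at hour 2 (green triangles), hour 6 (purple triangles) and hour 10 (pink diamonds), the median of the means over the 3 hours (black bars), and the median difference between the days at hours 14, 18 and 22 (open circles). In glycolysis and in the respiratory chain the hour 6 medians (-0.05 and -0.02) lie near 0 and the hour 2 medians (0.56 and -0.34) far from it.

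The difference between the same days without a difference in temperature was taken from hours 14, 18 and 22, on other arrays. There 0 of 11137 probe sets (0.0%) passed an adjusted p of 0.05 and none passed 0.2 in the same limma fit, while 775 had an unadjusted p below 0.05 (6.96%). Among the 15 probe sets called at the early hours, 9 had the opposite sign at the late hours, and the largest late difference was that of 143588_at. *SPARC* stood at 0.02, *CG4558* at 0.02, *ACC* at 0.00 and *Rel* at 0.04 at the late hours. *DnaJ-1* stood at -0.28, *Stip1* at -0.37 and *Hsp83* at -0.58, each lower on the AA day, opposite to the early hours. *CNBP*, a nucleic acid-binding zinc finger protein, stood lower on the AA day in both parts of the day, at -0.81 early and -0.60 late.

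Whether the early and the late differences differed was tested by their contrast in the same fit. It called 1 of 11137 probe sets (0.00898%), *CG13315*, whose early difference of -1.22 and late difference of 0.37 were -1.60 apart (SE 0.14, adjusted p = 0.00615). For *DnaJ-1* the contrast was 0.80 (SE 0.11, adjusted p = 0.169), and for *SPARC* it was 0.84 (adjusted p = 0.212). Without the hour 6 pair it called 40 probe sets, and without the pair of hour 10, 18 or 22 it called 0. Before adjustment, 9.44% of probe sets had a p below 0.05. For the other 14 called probe sets a difference between the parts of the day was therefore not detectable after adjustment with 3 pairs in each.

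**Figure D5:**
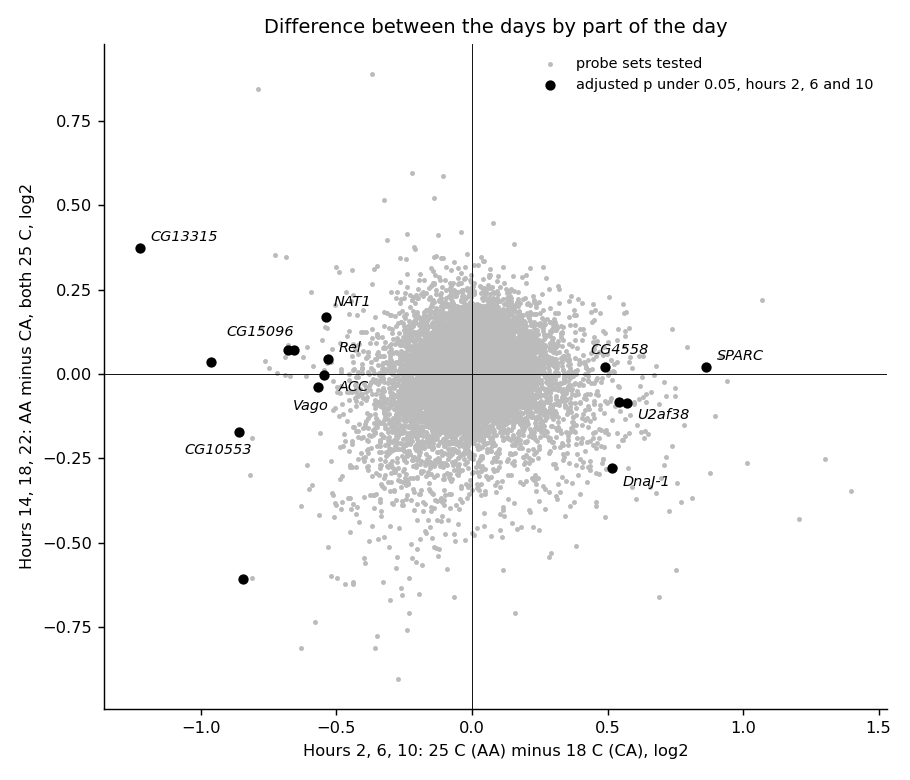
Each point is 1 of 11137 probe sets, with its difference between 25 °C and 18 °C at hours 2, 6 and 10 on the horizontal axis and its AA minus CA difference at hours 14, 18 and 22, both days at 25 °C, on the vertical axis (log2); black points are the 15 with an adjusted p under 0.05 at the early hours. *CG13315* lies farthest left among the black points (-1.22, late 0.37), and most black points lie near 0 on the vertical axis, with 143588_at lowest at -0.61.

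The part of the eIF-4a and body marker measures in these differences was not tested beyond the covariate fits. With the eIF-4a covariate *SPARC* stood at 0.55, *DnaJ-1* at 0.39 and *CG15096* at -0.52, nearer to 0 than without it, and 146946_s_at (-1.18), *Vago* (-0.59), *NAT1* (-0.60) and *ACC* (-0.56) stood as far or farther from 0 than without it. With the body marker score as the covariate 1 probe set was called, *CG13315*, and the differences of *SPARC*, *DnaJ-1* and *Rel* were 0.82, 0.51 and -0.53.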

How the data were processed

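RNA from pooled heads was hybridised by the authors to 12 Affymetrix Drosophila Genome 1 arrays. The deposited values are log2 expression levels that the authors made with RMA, whose version is not given in the sources used here. The table has 14010 probe sets, of which 44 controls were left out. An array carries no read depth, and the number of arrays limits the precision. Gene names came from the platform annotation, brought up to date through the RefSeq gene table by Entrez number (12394 of 12443 probe sets with 1 symbol matched; 327 had several symbols and 1196 none) or by probe set identifiers among its synonyms (20), so that 9950 of the 11137 probe sets kept had a name.

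One model per probe set (limma 3.58.1 in R 4.3.3, lmFit and eBayes, two-sided) held the hour as a block of 6 levels, a day term for hours 2, 6 and 10 and another for hours 14, 18 and 22, with 4 residual and 5.57 prior degrees of freedom. The fit was tested on simulated data. Pairing follows the hour in the titles. Deviations of same-hour arrays from their group means correlated at 0.31, 0.00 and 0.48 for hours 2, 6 and 10, and at -0.13, 0.61 and 0.59 for hours 14, 18 and 22, so the hours pair the arrays by design and not in every pair by the data. The spread is thus that of differences between days at 1 hour.

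Named genes were up to 15 past adjusted p 0.05 in each direction (filled to 10 by smallest p), the 10 of largest difference with groups apart, up to 4 of smallest p in each gene list, 9 clock genes, and genes past 0.05 in the other contrasts; exceptions are marked. The comparison, the 37 gene lists and the 9 marker lists were chosen with earlier results of these data known, and each gene of a list was represented by its probe set of highest mean. Lists were described by counts and medians, with no test. With 0.135% of all probe sets called, a list without a call gives no result about its members. Alternatives were no block, other filters (none, or the 40th percentile), variance priors, array weights, normalizations, the 6 arrays alone, a covariate for eIF-4a or body markers, and each array left out. Tables were prepared with Python 3.11.15, numpy 2.4.6 and pandas 2.3.3, and plots with matplotlib 3.10.9.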

Additional observations from a re-analysis of the deposited data

Results flagged for a closer look

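*CG13315* was the 1 gene whose difference between the days at hours 2, 6 and 10 (25 °C against 18 °C, -1.22) was unlike that at hours 14, 18 and 22 (both days at 25 °C, 0.37) by a test of the difference itself. The contrast was -1.60 (SE 0.14, limma adjusted p = 0.00615 over 11137 probe sets), and each of the 3 early pairs was negative. With the eIF-4a covariate, or without the hour block, the contrast was not called. It was drawn from 3 pairs in each part of the day, and groups of 3 arrays are too small to test for a single array that stands apart.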

How the results depend on the processing

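The number of calls depended on how the spread was estimated; several alternatives leave the differences themselves identical by construction, so their direction is no check. At the early hours, where 15 were called, the count was 0 with no replicate block, so it rests on the pairing by hour. It was 29 with no filter, 46 with a robust prior, 858 with array weights (433 higher, 425 lower), 35 after quantile normalization, and 833 at an adjusted p of 0.2. It was 1 with an intensity trend in the prior, with median centring, with the 6 early arrays alone and a replicate block, and with the body marker covariate; it was 0 with the 6 arrays and no replicate block and with the eIF-4a covariate. Higher calls were 20 of 35 after quantile normalization, against 5 of 15. Leaving out single arrays gave 0 to 408 calls. For the contrast of early with late hours, with 1 call, the count was 0 with no replicate block and with the eIF-4a covariate, 2 with array weights, the body marker covariate or an adjusted p of 0.2, and 0 to 40 with arrays left out. At the late hours it was 0 under every alternative. The stricter filter left 15 calls. With 3 pairs the smallest difference called was 0.49, beside a median standard error of 0.087. A difference of 1.30 for *eEF1alpha2* (SE 0.34) was not called. Temperature, day order and age cannot be told apart.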
